A study of Arabidopsis thaliana with 13 samples.

Results

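The comparison set 2 lines of Arabidopsis thaliana that overexpress CLE3 against each other, line CLE3ox 17-3 minus line CLE3ox 12-1. Its members are the 4 arrays whose sample titles name these lines (n = 2 for each line), of 13 arrays in the series. Both lines carry the overexpression of CLE3 in the Col-0 accession, and the 3 Col-0 arrays are their wild type. The remaining arrays are the accession Ler and the clv1-15 mutant in the Ler background (n = 3 each). They are used here for the shared estimate of spread and for levels beside the lines. Roots of all genotypes were taken whole after 10 days of growth at 22 °C, on MGRL plates supplied with nitrate at 0.1 mM (as KNO3) and sucrose at 1%, under 16 h days and 8 h nights. The promoter that drives CLE3, the zygosity and the insertion sites are not given in the sources used here. The labels number the arrays as biological replicates without saying that they came from separate cultures, so p-values measure the spread between these arrays, which may be partly technical.

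CLE genes encode small secreted peptides that are cut from a longer precursor and bind leucine-rich repeat receptor kinases on neighbouring cells. CLE3 belongs to a group of root CLE genes that respond to low nitrogen, and its peptide is known to act through the receptor CLAVATA1 (CLV1) to restrain the growth of lateral roots. Independent lines that overexpress 1 gene are commonly compared to see which transcripts they share and which belong to a single line. No probe set carries the name CLE3 or CLV1 in the probe table, so the level of CLE3 in each line was not analysed here. Whether the lines differ in that level was not tested.

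Signals are linear intensities, scaled by the authors so that the trimmed mean of each array is 500. The median signal of the 4 arrays lay between 197.55 and 200.1. Differences are given on the scale of log2(signal + 16), on which a low signal shows a smaller change than its ratio would. The number of arrays limits the precision. At the median standard error of 0.138, the 95% interval of a difference reached 0.29 to each side. Before any test, the spread within a line was about as wide as the distance between lines. Across the 15922 tested probe sets the second minus the first array had an SD of 0.23 within line 12-1 and 0.27 within line 17-3. Line 17-3 minus line 12-1 had an SD of 0.22 over the first arrays and 0.26 over the second arrays. Across probe sets, the first arrays of both lines correlated at r = 0.991. This was above the 0.990 between the arrays of 12-1 and the 0.987 between those of 17-3. The second arrays of both lines correlated at 0.987, below the value within 12-1 and close to that within 17-3. Probe sets are not independent replicates. The bioD spike-in control, added equally to samples, read 2195.3 and 2241.8 on the first arrays of 12-1 and 17-3, and 2702.1 and 2747.7 on their second arrays. On the Col-0 arrays it read 2156.4, 2357.7 and 2719.8. The other spike-in controls did not all follow the array number. The bioC control read 870.2 and 910 on the first arrays of 12-1 and 17-3, and 837.3 and 946.4 on their second arrays. BioDn likewise fell in 12-1 and rose in 17-3, while cre rose and bioB fell in both lines. Some plant controls set the second array of 17-3 apart. AFFX-r2-At-Actin-5_s_at read 10190.4 on it and 7751.7 to 8207.2 on the other CLE3ox arrays. AFFX-r2-At-GAPDH-5_s_at read 19292.5 on it and 16059 to 16250.2 on the others. In AFFX-Athal-Actin_M_at and AFFX-Athal-GAPDH_M_s_at it was not the highest of the CLE3ox arrays. No label gives a hybridisation batch, and its part in the results below was not tested beyond the differences within each replicate number.

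The lines differed in 42 of 15922 tested probe sets (0.264%) by limma with Benjamini-Hochberg adjusted p under 0.05. In line 17-3, 35 probe sets were higher (0.22%) and 7 lower (0.044%). A further view without adjustment counted 1108 probe sets at p under 0.05. Of the 42, 16 carry 1 gene name, 12 higher and 4 lower, and 26 carry none, 23 higher and 3 lower. The absolute difference ran from 0.46 to 2.09 with a median of 0.97, and 16 of the 42 were at least 2-fold. Arrays of the lines did not overlap in any of the 42, where 34.1% of all tested probe sets had arrays that did not overlap. The 42 were selected for a gap between the lines, which makes this placing far more likely among them. Without overlap, line 17-3 minus line 12-1 must have the same sign over any pair of arrays, so only the sizes are given. The median absolute difference of the 42 was 0.92 over the first arrays and 0.99 over the second arrays. The bulk of the transcriptome was close to 0, with a median difference of -0.0043 and quartiles of -0.10 and 0.096.

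**Figure D1:**
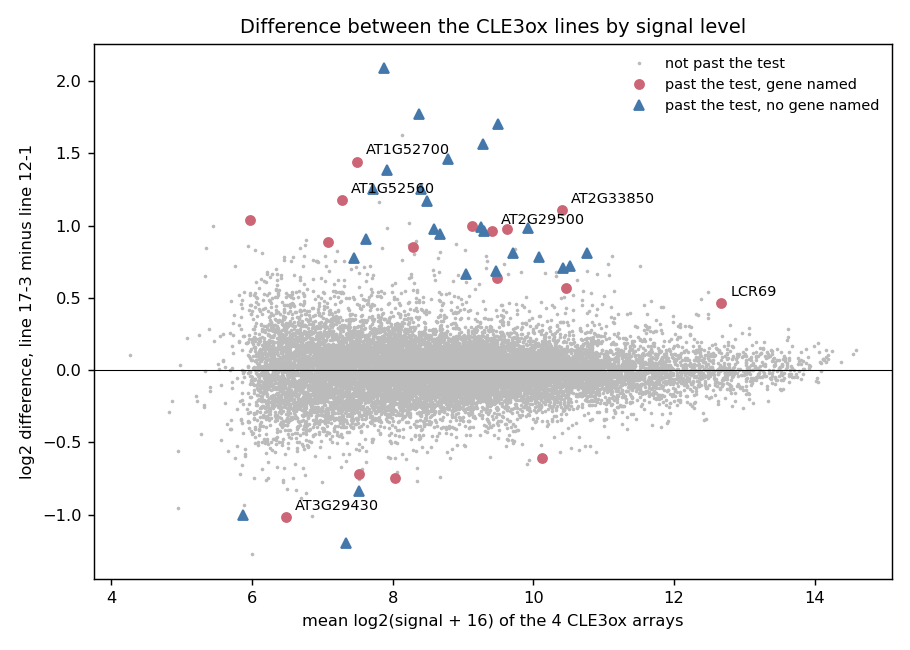
Difference between the lines (log2, line 17-3 minus line 12-1) against mean signal (log2(signal + 16) over the 4 CLE3ox arrays) for the 15922 tested probe sets. Red circles mark the 16 named and blue triangles the 26 unnamed probe sets past the test, most of them above 0.

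These counts depended on single arrays. Without the first array of line 12-1, 22 probe sets passed. Without the second array of 12-1, 14 passed, and without the second array of 17-3, 13. Leaving out the first array of 17-3 gave 46, of which 25 were higher and 21 lower, so the excess of higher probe sets was far smaller on those arrays. With the 4 arrays of the lines fitted alone, 20 passed, 19 higher and 1 lower. An exact permutation test of a single gene over 2 against 2 arrays cannot give a two-sided p below 0.333, so the calls rest on the spread shared across probe sets and groups.

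**Figure D2:**
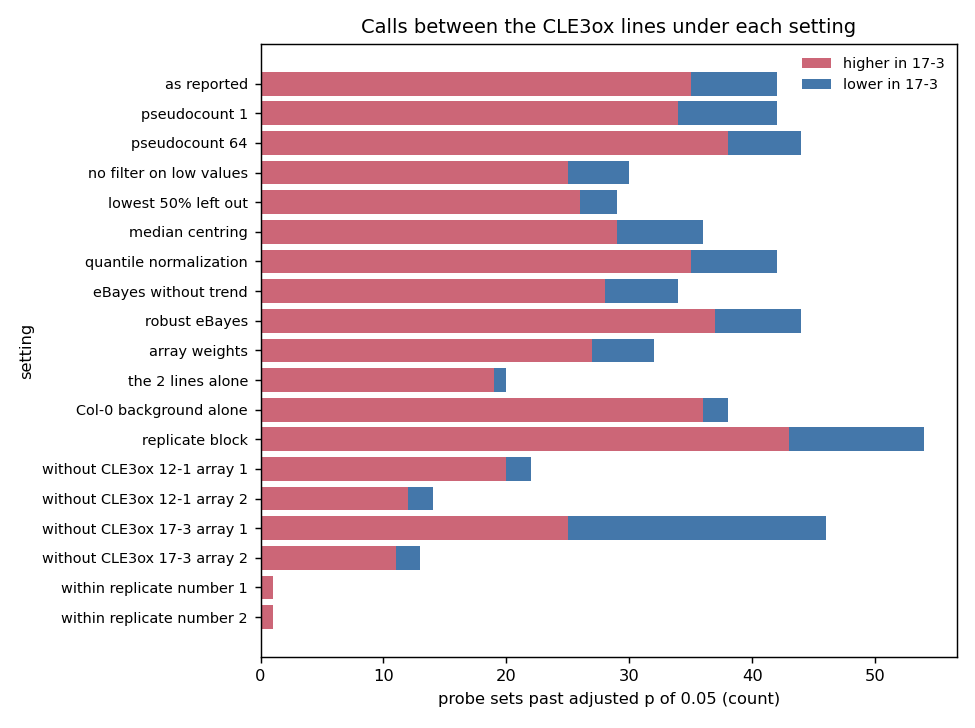
Number of probe sets past the test between the lines under each setting, as stacked bars from 0, red for higher and blue for lower in 17-3. The reported setting gives 42; the bars shrink to 13 without the second array of 17-3 and to 1 when single arrays of the same number are compared.

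Small heat shock proteins, chaperones that hold unfolding proteins in a soluble state and are induced by heat and other stresses, included 2 of the 16 named genes that differed. Of 19 genes in the list, 10 had a tested probe set. Of these, 2 were higher in line 17-3 (0.22% of all tested probe sets), 0 were lower (0.044% of all) and 8 did not pass the test. Listed genes without a named probe set were not examined. Whether any of them is among the 26 unnamed probe sets past the test is not known here. The list's median difference was 0.55, beside -0.0043 over all tested probe sets. Signs were positive in 9 of 10, and arrays did not overlap in 8 of 10, all higher in 17-3, where 16.5% of all tested probe sets lay apart in that direction.

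AT1G52560 had signals of 74.5 and 101.6 in line 12-1, 191.8 and 245.9 in line 17-3, and 67.6, 64.9 and 59.3 in Col-0. Both arrays of 17-3 lay above the other 5, and the 12-1 arrays lay above Col-0 by less. The difference between lines was 1.18 ± 0.17 (SE, adjusted p = 0.0056). AT2G29500 read 460.7 and 479.6 in 12-1, 922.3 and 943 in 17-3, and 342.2, 322.2 and 355.5 in Col-0. Its lines did not overlap, and its arrays were close within each line. The difference was 0.96 ± 0.15 (SE, adjusted p = 0.0097).

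The largest difference among the tested genes of the list belonged to AT1G53540, which did not pass the test. Its signals were 149.9 and 139.5 in 12-1, 463.6 and 495.8 in 17-3, and 45.7, 68.5 and 36 in Col-0. The groups did not overlap, and the difference was 1.63 ± 0.36 (SE, adjusted p = 0.083). AT1G54050 read 223.2 and 217.1 in 12-1 and 407.5 and 439.3 in 17-3, a difference of 0.90 ± 0.19 (SE, adjusted p = 0.082). Both genes passed when the Col-0 background was fitted alone (limma adjusted p = 0.013 and 0.045). Of 17 alternatives, AT1G53540 passed in 3 and AT1G54050 in 2. Neither passed without a filter on low values (limma adjusted p = 0.202 and 0.174). ATHSP22.0 was lower in signal, at 54.2 and 80.2 in 12-1 and 110.2 and 96.9 in 17-3. Its interval of -0.10 to 1.18 included 0. AT4G21870 was the member with the opposite sign, at -0.02 with an interval of -0.44 to 0.40.

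Of 32 genes of other chaperones and heat shock factors, which work with the small heat shock proteins in refolding, 5 were tested. None of the 5 passed, at a median of 0.16, and their range was narrow. Listed genes without a named probe set were not examined, so a difference limited to the small heat shock proteins was not shown. The DnaJ gene AT2G20560 read 574 and 534.1 in 12-1 and 610.5 and 702.8 in 17-3, a difference of 0.24 with an interval of -0.00915 to 0.48. AT3G09440, which encodes an HSP70, had a difference of -0.10 with an interval of -0.32 to 0.12. A log2 rise of the size seen in AT2G29500 lay outside both intervals.

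The calls of the small heat shock protein genes ended in several alternatives. AT1G52560 had an adjusted p of 0.0694 without the first array of 12-1 and 0.0967 without the second array of 17-3. AT2G29500 had 0.106 and 0.104 without the first and second arrays of 12-1, and 0.0551 and 0.121 without those of 17-3.

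**Figure D3:**
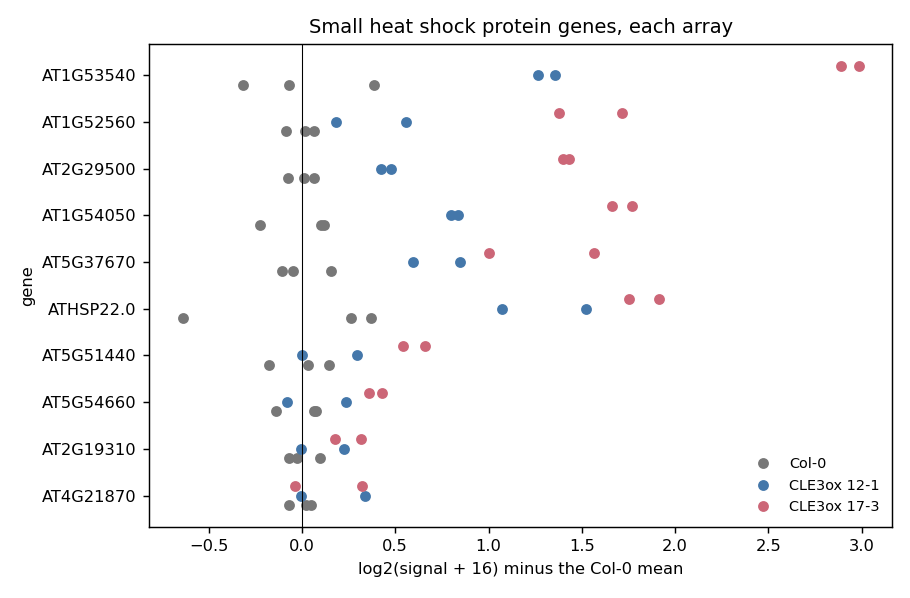
Tested small heat shock protein genes, with each array as a point at its log2(signal + 16) minus the Col-0 mean; grey is Col-0, blue line 12-1 and red line 17-3. The 17-3 points lie to the right of the 12-1 points in 8 of the 10 genes, farthest in AT1G53540.

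AT1G52700, which encodes a hydrolase resembling acyl-protein thioesterases (enzymes that cut fatty acids from proteins), had the largest difference among the named genes past the test. Its signals were 72.7 and 118.9 in 12-1, 296.2 and 267.8 in 17-3, and 44.6, 55.4 and 64.4 in Col-0. The 17-3 arrays lay far above the other 5, and the 12-1 arrays lay apart from each other. The difference was 1.44 ± 0.25 (SE, adjusted p = 0.0185). Its adjusted p was 0.246 when the first array of 12-1 was left out, and 0.0995 and 0.142 when the first or second of 17-3 was. Of the other 2 tested hydrolases of its list, AT3G15650 read 469.2 and 708.8 in 12-1, 963.9 and 982.1 in 17-3, and 224.1, 281.4 and 256.3 in Col-0. All groups were apart, but the line difference of 0.74 ± 0.17 (SE) did not pass (adjusted p = 0.107). It passed in 1 of 18 alternatives, the fit without the second array of 12-1, the higher of the 12-1 arrays. AT5G20060 had a difference of -0.18 (limma adjusted p = 0.868). Of 9 genes in the list, 3 were thus tested, 2 with a positive and 1 with a negative difference. A common direction of the list was not tested.

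AT3G10020, known as a gene induced by low oxygen, read 571.7 and 525.7 in 12-1, 1014.2 and 1178.9 in 17-3, and 452.6, 403.9 and 463.2 in Col-0. Both lines were above Col-0, with 17-3 far above 12-1. The difference was 0.98 ± 0.15 (SE, adjusted p = 0.0095). AT5G60250, a RING-type zinc finger gene, had low signals, at 29.4 and 26.2 in 12-1, 71.2 and 76.7 in 17-3, and 37.1, 57.2 and 38.8 in Col-0. The lines were on opposite sides of the wild type. The difference was 1.04 ± 0.20 (SE, adjusted p = 0.0456). This call ended in 14 of 17 alternatives, with an adjusted p of 0.0872 at a pseudocount of 64, 0.05 under median centring, 0.0626 under quantile normalization and 0.1 to 0.314 with any 1 array of the lines left out.

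SP1L2, a member of the SPIRAL1-like family that associates with microtubules, read 241.3 and 193.8 in 12-1, 429.9 and 377 in 17-3, and 242, 219.4 and 207.4 in Col-0. Line 12-1 overlapped the wild type, and line 17-3 lay above both. The difference was 0.85 ± 0.17 (SE, adjusted p = 0.0471), and it did not pass under median centring (0.0574) or at a pseudocount of 64 (0.0561). The next genes are given without a role. AT2G33850 read 865.9 and 958.3 in 12-1, 1737 and 2256.8 in 17-3, and 995.1, 1159.5 and 859.3 in Col-0, a difference of 1.11 ± 0.15 (SE, adjusted p = 0.00493). Again only 17-3 was apart from the wild type. AT5G10695 read 365.5 and 394.6 in 12-1, 788.1 and 764.8 in 17-3, and 237.9, 291.8 and 259.5 in Col-0. Here 12-1 lay between Col-0 and 17-3, and the line difference was 1.00 ± 0.18 (SE, adjusted p = 0.0202). AT3G47510 had the same order of groups at 547.5 and 569.2 in 12-1, 909.2 and 847.5 in 17-3, and 471.9, 446.5 and 513.3 in Col-0. Its difference was 0.64 ± 0.12 (SE, adjusted p = 0.0392).

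Genes of the cell wall and of defence made up the rest of the named higher genes. AT5G14650, of the pectin lyase-like family that includes polygalacturonases of the cell wall, read 87.9 and 79.9 in 12-1, 146 and 193.9 in 17-3, and 144.8, 120.4 and 129.6 in Col-0. It was below the wild type in 12-1 and just above it in 17-3. The line difference was 0.89 ± 0.15 (SE, adjusted p = 0.0185). AT4G16260, of the beta-1,3-glucanase family, read 1129.6 and 1142.1 in 12-1, 1661.7 and 1729.1 in 17-3, and 1467.8, 1662.9 and 1271.9 in Col-0. Line 12-1 lay below all Col-0 arrays, and line 17-3 reached into their range. The difference was 0.57 ± 0.10 (SE, adjusted p = 0.0225). LCR69, a plant defensin gene, had the highest signals and the smallest difference of the 42. It read 5566.2 and 5482.6 in 12-1, 7606 and 7649.4 in 17-3, and 6104.4, 6041.4 and 5864.2 in Col-0. The lines were on opposite sides of a tight wild type, and differed by 0.46 ± 0.09 (SE, adjusted p = 0.0279).

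The 4 named genes that were lower in line 17-3 each had a different role. AT3G29430, of the geranylgeranyl diphosphate synthase family that builds isoprenoid precursors, read 130.8 and 94.6 in 12-1, 47.4 and 46.5 in 17-3, and 140.4, 123.5 and 130.8 in Col-0. Line 12-1 overlapped the wild type, and line 17-3 was below both. The difference was -1.02 ± 0.18 (SE, adjusted p = 0.0185). AT5G26080, a proline-rich gene related to the extensins of the cell wall, read 364.5 and 286.2 in 12-1, 187.4 and 186 in 17-3, and 434.4, 417.8 and 376.3 in Col-0. Both lines were below the wild type, and 17-3 by more. The difference was -0.74 ± 0.14 (SE, adjusted p = 0.0388).

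AT5G57840, of the HXXXD-type acyltransferase family, read 211.1 and 229.2 in 12-1, 137.4 and 118 in 17-3, and 151.4, 157.3 and 167.6 in Col-0. It was above the wild type in 12-1 and below it in 17-3. The difference was -0.72 ± 0.13 (SE, adjusted p = 0.0224). AT5G54370, related to late embryogenesis abundant proteins, read 1322.3 and 1396.7 in 12-1, 963.1 and 816 in 17-3, and 1256.9, 1147.5 and 1259.8 in Col-0. It was likewise on opposite sides of the wild type, at -0.61 ± 0.10 (SE, adjusted p = 0.0139).

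Of the 16 named calls, 15 ended without the first array of 12-1, where AT2G33850 alone remained (adjusted p = 0.0498). Without the second array of 12-1, 12 ended, and without the first array of 17-3, 10 ended. All 16 ended without the second array of 17-3, with adjusted p between 0.0895 and 0.305. No difference changed its sign in these fits, which was fixed in advance because the arrays of the lines did not overlap. With the lines fitted alone 12 of the 16 ended, and without a filter on low values 10.

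**Figure D4:**
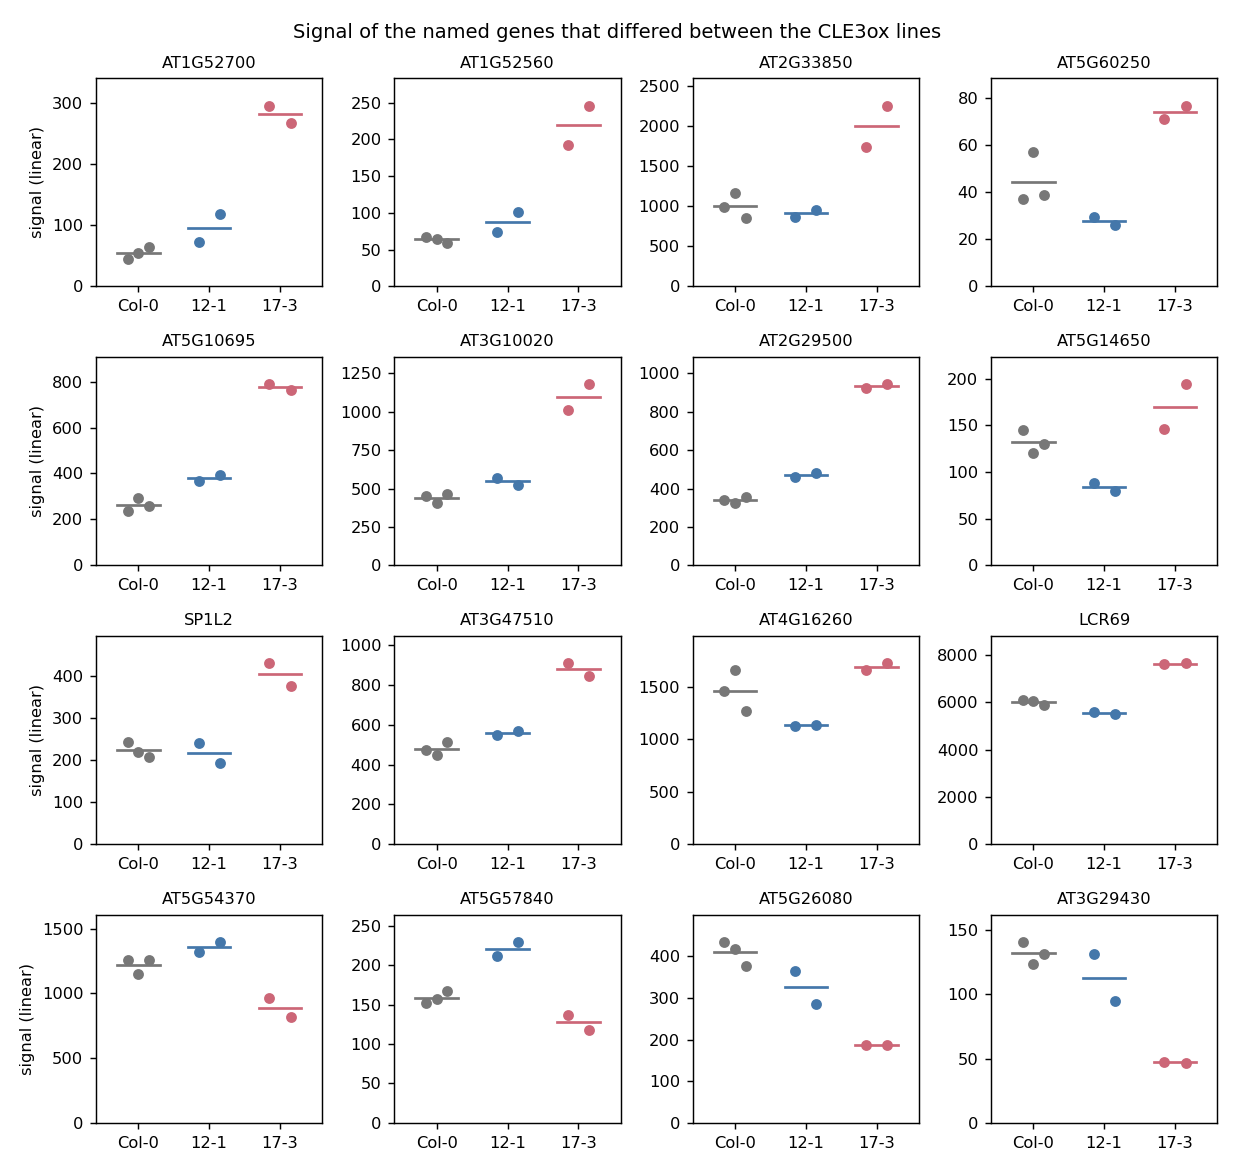
Linear signal of each Col-0, 12-1 and 17-3 array for the 16 named genes past the test, each on its own axis from 0, with a line at the group mean. Red points of 17-3 are apart from blue points of 12-1 in every panel, with the 12 higher genes first and the 4 lower genes in the bottom row.

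The 26 unnamed probe sets held the largest differences. They are given by probe set name, were chosen here for their size after their values were seen, and are not tied to a gene. 246454_at read 83.1 and 116.4 in 12-1, 477.5 and 465.2 in 17-3, and 445.8, 491.7 and 410.6 in Col-0. Line 12-1 stood alone: the other 11 arrays, Ler and clv1-15 included, lay between 410.6 and 561.1. The difference was 2.09 ± 0.15 (SE, adjusted p = 7.0e-06), and it was the call that no alternative ended. It was also the probe set that passed when single arrays of the same number were set against each other, at 2.32 over the first arrays and 1.86 over the second arrays (limma adjusted p = 0.000275 and 0.00388). A similar placing was seen in 249490_s_at, which read 154.2 and 115.7 in 12-1, 459.5 and 306.4 in 17-3, and 291.5, 488.3 and 441.9 in Col-0. Line 17-3 overlapped the wild type and line 12-1 was low. The difference was 1.39 ± 0.24 (SE, adjusted p = 0.0178), and the clv1-15 arrays, at 105.5, 99.7 and 99.3, were as low as 12-1. Its adjusted p was 0.21 without the second array of 12-1 and 0.109 without the first array of 17-3.

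Other unnamed probe sets were raised in both lines and more in 17-3. 254059_at read 178.6 and 151.1 in 12-1, 668 and 540.7 in 17-3, and 59, 80.3 and 37 in Col-0. The order of groups was strict, and the lines differed by 1.77 ± 0.26 (SE, adjusted p = 0.00608). It had an adjusted p of 0.104 without the second array of 12-1 and 0.0557 without the first array of 17-3. 252515_at read 400.8 and 365.8 in 12-1, 1315.1 and 1254.5 in 17-3, and 107.2, 140.8 and 114.3 in Col-0. It differed by 1.70 ± 0.20 (SE, adjusted p = 0.00119), and passed with any of the 4 arrays left out. Among the lower probe sets, 246967_at read 208.1 and 249.9 in 12-1, 84.8 and 96.1 in 17-3, and 323.9, 357.4 and 361.7 in Col-0. Both lines were below the wild type, and they differed by -1.20 ± 0.13 (SE, adjusted p = 0.00109). Of the 42 calls, 6 passed with any 1 of the 4 arrays left out, namely 246454_at, 252515_at, 261838_at, 255997_s_at, 246550_at and 246967_at, and none of these carries a gene name.

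Set against Col-0, 528 probe sets passed in line 17-3 (3.32%) and 69 in line 12-1 (0.433%). Both counts use the same 3 Col-0 arrays, and the difference between the 2 counts is not a test of the lines. The count of 17-3 fell to 186 without its second array, and was 347 and 343 without the first and the third Col-0 array. That of 12-1 was 25 without its second array, and 43 and 38 without the second and the third Col-0 array. The place of the wild type among the 42 probe sets is given as a description, since the contrast between lines chose them. Line 12-1 had the middle of the 3 group means in 20 of the 35 higher and in 5 of the 7 lower probe sets. Col-0 had the middle in 14 and 2. Line 17-3 had the middle in 1, 249490_s_at. Among all tested probe sets, 12-1 was in the middle in 42.6%, Col-0 in 29.4% and 17-3 in 27.9%.

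Of the 35 higher probe sets, 29 passed against Col-0 in line 17-3 and 5 in line 12-1. Those past in both were 254059_at, 252515_at and 255997_s_at. Those past in 12-1 alone were 246454_at and 249490_s_at, and the 4 past in neither were 252415_at, AT5G60250, AT5G14650 and AT4G16260. Of the 7 lower probe sets, 6 passed in 17-3, and 253182_at passed in both lines. It read 213.4 and 245.9 in 12-1, 123.9 and 118.2 in 17-3, and 428.9, 444 and 458.7 in Col-0. AT5G57840 passed in neither.

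**Figure D5:**
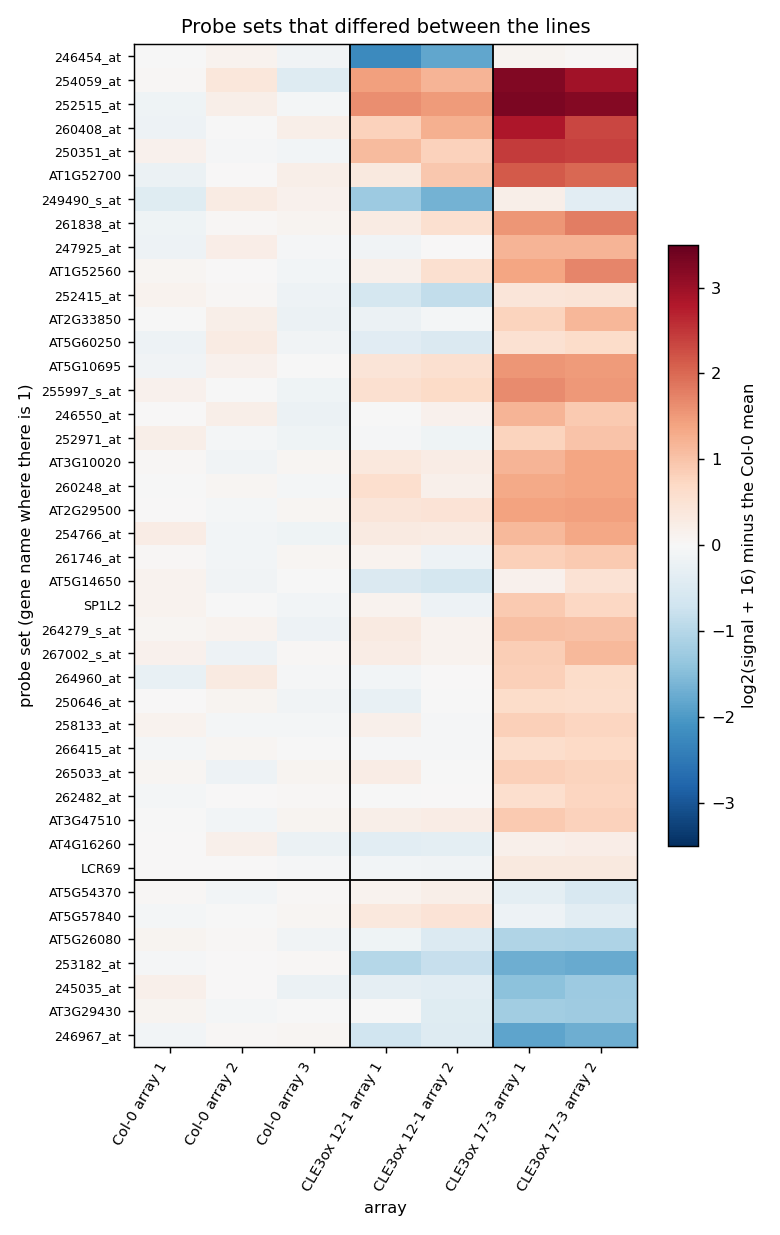
Each row is 1 of the 42 probe sets that differed between the lines, and each column 1 array; colour is log2(signal + 16) minus the Col-0 mean, red above and blue below. The strongest colours lie in the 17-3 columns, while 246454_at and 249490_s_at are blue in the 12-1 columns and pale in 17-3.

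Across all 13 arrays, line 17-3 held the extreme values in 22 of the 42 probe sets, above the other 11 arrays in 18 and below them in 4. Line 12-1 held them in 6. The 42 were selected for a gap between the lines, which makes such a placing more likely among them. Its share over all tested probe sets was not computed, so these counts are a description only. In other called probe sets, levels of the Ler background reached or passed those of the lines. SP1L2 read 784, 601.1 and 779 in Ler, above the 429.9 and 377 of line 17-3. AT2G33850 read 2555, 2099.3 and 1972.7 in Ler, which overlapped the 17-3 arrays. AT5G14650 stood highest in clv1-15, at 495.4, 637.8 and 598.9. These background levels are from another accession and were not compared with the lines by a test.

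The 16 named genes were spread over the 5 nuclear chromosomes. Chromosome 5 held 6 of them, chromosomes 1, 2 and 3 held 3 each and chromosome 4 held 1. Of the tested probe sets with a gene name, 23.9% were on chromosome 5 and 26.0% on chromosome 1. No 2 of the genes were neighbours in the TAIR10.1 order. The closest were AT1G52560 and AT1G52700, with 16 genes between them.

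Among named genes that did not pass the test, those with the largest differences and no overlap between lines were also examined. AOR, which encodes a chloroplast reductase of reactive carbonyls, read 8.3 and 23.4 in 12-1 and 41 and 50.9 in 17-3, close to the pseudocount. Its difference was 1.00 ± 0.39 (SE, adjusted p = 0.565). AT4G33720, of the pathogenesis-related protein 1 family, read 217.9 and 111.2 in 12-1, 369.8 and 287 in 17-3, and 41.5, 39.2 and 49.7 in Col-0. The spread within 12-1 was wide, and the difference was 0.99 ± 0.26 (SE, adjusted p = 0.183). AT5G24980 read 69.8 and 58.3 in 12-1 and 125.8 and 140.1 in 17-3, at 0.90 ± 0.19 (SE, adjusted p = 0.0694).

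On the lower side, AT5G07740, a formin-like gene of the actin cytoskeleton, read 130.2 and 168 in 12-1 and 78 and 54.4 in 17-3, at -1.01 ± 0.25 (SE, adjusted p = 0.145). AT4G19240 lay at 28.6 and 25.1 in 12-1 and 7.9 and 4.4 in 17-3, below the pseudocount, and between 7.6 and 25.5 in Col-0. It passed the filter on low values only through Ler and clv1-15, at 381.5 to 518.9, so its difference of -0.96 (adjusted p = 0.107) is of little weight. The chitinase-family gene AT2G43600 had -0.82 and the cytidine deaminase gene AT4G29610 -0.77. For the cytochrome P450 gene CYP718 the interval of -1.59 to 0.07 included 0.

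The genes of the CLE pathway and of root development that could be tested gave no call. Of 23 genes in the CLE list, 3 were tested, at a median difference of 0.38. Listed genes without a named, tested probe set were not examined. CLE44, a precursor of the peptide that keeps vascular stem cells undifferentiated, read 226.3 and 221.1 in 12-1, 325.5 and 344.2 in 17-3, and 130.1, 154.4 and 146.3 in Col-0. The 3 groups did not overlap, and the lines differed by 0.55 ± 0.16 (SE, adjusted p = 0.266). CLE41, a precursor of the same peptide, had 0.28 with an interval of -0.10 to 0.66, and CR4, a receptor-like kinase gene of the root tip, had 0.38 with -0.21 to 0.96. All 7 tested of 21 genes of auxin response and lateral root formation were positive, with a median of 0.27. Arrays of 5 of the 7 lay apart and higher in 17-3. Of all tested probe sets, 48.6% were positive and 16.5% lay apart in that direction. The largest was GH3.3, an auxin-conjugating enzyme gene, at 103.4 and 83.1 in 12-1 and 162.1 and 122.9 in 17-3. Its difference was 0.53 ± 0.25 (SE, adjusted p = 0.715). LBD16, which acts at the start of lateral root formation, had 0.04 with an interval of -0.25 to 0.34.

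For nitrogen, which the medium held at a low supply, 2 of 33 listed genes could be tested and neither passed. AT1G06830, a glutaredoxin gene of the group that relays nitrogen demand from shoot to root, read 451.4 and 579.2 in 12-1, 349.5 and 256.6 in 17-3, and 171.7, 216.6 and 257.6 in Col-0. Line 12-1 lay above both other groups. The line difference was -0.74 ± 0.22 (SE, adjusted p = 0.314). The nitrate transporter gene NRT2.5 had -0.48 with an interval of -0.93 to -0.02.

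Other groups had no call between the lines among their tested genes, whatever their distance from Col-0. Of 21 root defence genes, 5 were tested, at a median of 0.10. Arrays of the lines overlapped in all 5, where 34.1% of all tested probe sets had arrays that did not overlap. AT2G38870, a protease inhibitor gene, read 1132.5 and 966.9 in 12-1, 1143.6 and 1105.4 in 17-3, and 2034.5, 2383.9 and 2514 in Col-0. The interval of the line difference was -0.13 to 0.34. AT1G26410, a berberine bridge enzyme-like gene, had an interval of -0.72 to 0.30. Of 26 iron and coumarin genes, 5 were tested at a median of 0.03. AT3G12900, which hydroxylates scopoletin, read 116.7 and 125.1 in 12-1, 133.8 and 133.9 in 17-3, and 375.4, 560 and 600.7 in Col-0. Its interval was wide, at -0.70 to 0.97. A p that misses the threshold does not show that the lines are alike in these genes.

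Larger families spread around 0. The 63 tested plastid-encoded genes had a median of 0.04, the 30 UGT glycosyltransferases 0.01, the 11 CYP cytochromes P450 -0.05 and the 14 expansins -0.09, with no call in any of them. The 6 tested of 22 terpene and prenyl synthases were all negative, where 51.4% of all tested probe sets were, at a median of -0.27. They held 1 lower call (0.044% of all tested probe sets), AT3G29430, which ended without the first array of 12-1 (adjusted p = 0.246) and without the first or second of 17-3 (0.0707 and 0.165). The 6 tested of 10 genes of mitochondrial dysfunction had a median of -0.04. AT2G21640, a gene raised by oxidative stress, had 0.80 ± 0.23 (SE, limma adjusted p = 0.298). The 3 tested of 17 glutathione transferases, which detoxify electrophiles, had a median of 0.18. GSTU25 had 0.38 with an interval of 0.10 to 0.66. STZ, a zinc finger gene and the 1 tested of 14 in the touch, wounding and jasmonate list, had -0.0020 ± 0.52 (SE). COR47, a dehydrin gene and the 1 tested of 9 in the ABA list, had -0.04 with -0.29 to 0.21. No gene of the reactive oxygen and endodermis lists could be tested.

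Markers of cell types are given as summed signals per array. The 2 tested of 11 shoot markers, LHCB4.1 of the light-harvesting complex and RCA, the activase of Rubisco, had a summed signal of 800.8 and 673.8 in 12-1, 1006.2 and 1022.9 in 17-3, and 701.7 to 773.9 in Col-0. The 2 tested of 8 root hair markers, EXPA7 and EXPA18, summed to 3290.3 and 3292.7 in 12-1, 2834.9 and 2641.5 in 17-3, and 3374.4 to 3875.1 in Col-0. Neither sum overlapped between lines, where 34.1% of all single tested probe sets had arrays that did not overlap. The 3 tested of 12 phloem markers summed to 1003 and 1146.6 in 12-1, 1503.8 and 1333.8 in 17-3, and 396.8 to 619.8 in Col-0. ATC, a homologue of TERMINAL FLOWER1, read 463.6 and 477.5 in 12-1 and 755.7 and 684.4 in 17-3 (log2 difference 0.60 ± 0.20 SE, adjusted p = 0.408). The phloem sum did not overlap between lines either, but with ATC taken out it did overlap. SWEET11 and OPS, which complete that sum, had limma adjusted p of 0.945 and 0.985 between lines. A shorter set of phloem markers planned for cell types held SWEET11 but neither ATC nor OPS. No marker of these lists passed the test between lines, and no tested marker was at 0. In whole roots, fewer cells of a type and less RNA per cell cannot be told apart, and the part of these markers in the 42 differences was not tested.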

How the data were processed

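The authors deposited linear signal intensity for 22810 probe sets of the Affymetrix ATH1 array on 13 arrays, made with MAS5 per the submitters' processing notes, with no version given. Detection calls were not used here. Signals were put on the log2(signal + 16) scale. After removal of 64 control probe sets and of the 30% with the lowest mean across arrays, 15922 were tested. limma 3.58.1 in R 4.3.3 fitted 5 groups of arrays together, taken from the sample titles, with eBayes and a trend. P-values were adjusted by the Benjamini-Hochberg method over all tested probe sets, with a threshold of 0.05. Errors are limma's standard errors (SE), and intervals are 95%. Fits were checked on simulated data. Probe sets were named from the platform's probe table and TAIR10.1: 13513 had 1 gene, 503 several and 8730 none, and 13436 of the first matched.

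The text names every single-gene probe set past the threshold, the 5 largest differences per direction among those not past it whose arrays do not overlap, and up to 4 members of each of 22 gene lists. The comparison, the lists and the members were chosen with earlier results of these data known. Lists that need product descriptions were not built, since the annotation used here holds too few. Alternatives were a changed pseudocount, filter, scaling or variance prior, weights per array, replicate number as a block, fewer groups in the fit and each array left out. Setting single arrays of the same number against each other was added after seeing the data.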

Additional observations from a re-analysis of the deposited data

Results flagged for a closer look

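In 6 of the 42 probe sets both arrays of one line lay above all Col-0 arrays and both arrays of the other line below them. Of all 15922 tested probe sets, 136 (0.854%) had this placing; the 42 were selected for a gap between the lines, which makes it more likely among them. Only the line difference passed the test in all 6, and opposite effects against Col-0 were not shown. Line 17-3 was the higher line in 252415_at (log2 difference 1.173), AT5G60250 (1.038), AT5G14650 (0.8854) and LCR69 (0.4643). Line 12-1 was the higher line in AT5G54370 (-0.6073) and AT5G57840 (-0.7189). Against Col-0, LCR69 (0.34, limma adjusted p = 0.0208) and AT5G54370 (-0.45, adjusted p = 0.0104) passed in line 17-3, and none of the 6 passed in line 12-1. For 252415_at the signals were 242.2 and 204.2 in 12-1, 514.3 and 529 in 17-3, and 414.8, 395.6 and 338.8 in Col-0.

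The same placing of arrays was seen in 3 named genes whose line difference did not pass the test. AT5G24980 was higher in line 17-3 (0.8979, limma adjusted p = 0.0694), with Col-0 at 96.7, 119.6 and 114. AT4G29610 was higher in line 12-1 (-0.7712, adjusted p = 0.237). LBD29, a transcription factor gene of lateral root formation, was higher in 17-3 (0.2737, adjusted p = 0.868), within a range of signals from 47.6 to 63.1 over both lines.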

How the results depend on the processing

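Counts between lines (42, 35 higher, 7 lower) moved by over 1.5 times as follows. With the 2 lines alone 20 passed (19 and 1). Fewer were lower with the lowest 50% left out (3) and in the Col-0 background alone (2). With array weights, 125 passed for 12-1 against Col-0. Leaving out 1 array of the lines gave 13 to 46 (11 to 25 higher, 2 to 21 lower). Leaving out 1 array of a line or of Col-0 gave 25 to 54 for 12-1 against Col-0 and 186 to 425 for 17-3. Single arrays of the same number, with a spread taken from the other groups, gave 1 (1 higher, 0 lower) for number 1 and for number 2. A line reduced to 1 array was given the spread of the other groups. The cause of these changes was not tested. Other pseudocounts, median centring, quantile normalization, and eBayes without trend or robust gave 34 to 44. Of the 42 calls, 15 were lost without a filter, 6 under median centring and 10 without the trend. No called difference changed its sign in any alternative. Since the arrays of the lines did not overlap in the 42, leaving out an array or changing the fit could not change a sign.

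Deviations of the arrays of both lines with the same number correlated at r = 0.31. With only 2 pairs and no label tying the numbers to a batch, they are not taken as paired. With the replicate block, 54 passed (43 higher, 11 lower), 1 of the 42 calls was lost, and the counts against Col-0 were 85 and 611.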
